A study of Mus musculus with 8 samples.

Results

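The genes described here encode the carriers that move amino acids and small peptides across cell membranes in 8 solute carrier families, Slc1, Slc3, Slc6, Slc7, Slc15, Slc36, Slc38 and Slc43. They were taken by name from the annotation of an Agilent mouse array that had been hybridised with RNA from mouse small-intestinal organoids, cultured epithelium that forms crypts. The name rule found 66 gene names, of which 65 are transporters and the other, Slc7a6os, lies on the opposite strand of Slc7a6 and was set apart. A probe well above background in either colour on at least 2 of the 8 arrays was found for 54 of the 65 transporters, against 19166 of 28146 gene names on the array as a whole. The 11 transporters without such a probe included Slc1a7, Slc6a2, Slc6a15, Slc6a18, Slc7a10, Slc7a12, Slc7a13, Slc15a3, Slc15a5 and Slc36a4.

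The study altered 2 transcription factors of the crypt, Ascl2, a basic helix-loop-helix factor of crypt base stem cells, and Tcf7l2, through which Wnt signals act on DNA together with beta-catenin. In experiment 1, organoids transduced with Ascl2 under the CMV promoter were compared with VillinCreERT2 organoids on 2 arrays, with the dyes swapped on replicate 2. In experiment 2, Tcf7l2null organoids, Tcf7l2null/Ascl2 over expressing organoids and Ascl2 over expressing organoids were each compared on 1 array with organoids transduced with dsGFP, and in experiment 3 Ascl2null organoids were compared on 1 array with VillinCreERT2 organoids. A self-self array, with control RNA in both colours, belonged to experiment 2 and another to experiment 3. Every culture, controls included, had received 4OH-tamoxifen for 16 h, the ligand that switches on CreERT2; it deleted Tcf7l2 or Ascl2, or induced Ascl2 or GFP, as each label states. RNA of the Ascl2 arm of experiment 1 was extracted after 24 h, and VillinCreERT2 restricts the recombinase to the gut epithelium. For the control of experiment 3 the labels give the genotype as VillinCreERT2 in one field and Ascl2loxp/loxp in another. No label says whether experiment 1 used separate cultures for its replicates, so p-values reflect spread that may be technical, and a condition with 1 array has no replicate check.

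Absorptive cells of the small intestine take up the products of protein digestion at the brush border, their apical membrane. Slc15a1 carries di- and tripeptides with protons, Slc6a19 neutral amino acids and Slc6a20a proline with sodium, Slc7a9 with its heavy chain Slc3a1 exchanges cystine and basic amino acids, and Slc1a1 takes up glutamate and aspartate. At the basolateral membrane, which faces the blood, Slc7a7 and Slc7a8 pair with the heavy chain Slc3a2 and pass amino acids on. Dividing cells import amino acids for growth through Slc1a5, Slc7a5 with Slc3a2, and Slc38a2.

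The stretch of 250 bases just before the start of transcription is shown for 5 of the genes that the results below turn on, because peptide, cystine and proline carriers of the brush border tended to differ together while Slc1a1 went its own way. The sequences are RefSeq's for GRCm38.p6, whose promoter table held 42 of the 54 measured transporters, and are written 5′ to 3′ on the strand of the gene. They lie at chr14:121505255-121505504 on the minus strand (Slc15a1), chr7:35448929-35449178 on the plus strand (the downstream of the starts listed for Slc7a9), chr17:85028097-85028346 on the plus strand (Slc3a1), chr9:123678833-123679082 on the minus strand (Slc6a20a) and chr19:28834885-28835134 on the plus strand (Slc1a1). Capitals mark a match, on either strand, to CAGCTG, an E-box of the kind basic helix-loop-helix factors such as Ascl2 bind, or to CAAAGTCCA, a sequence bound by the enterocyte factor Hnf4a.
Slc15a1: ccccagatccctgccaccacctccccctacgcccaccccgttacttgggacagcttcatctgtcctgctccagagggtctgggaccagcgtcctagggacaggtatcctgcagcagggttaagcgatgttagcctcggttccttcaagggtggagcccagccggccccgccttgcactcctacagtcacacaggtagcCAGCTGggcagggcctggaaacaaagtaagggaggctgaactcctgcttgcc
Slc7a9: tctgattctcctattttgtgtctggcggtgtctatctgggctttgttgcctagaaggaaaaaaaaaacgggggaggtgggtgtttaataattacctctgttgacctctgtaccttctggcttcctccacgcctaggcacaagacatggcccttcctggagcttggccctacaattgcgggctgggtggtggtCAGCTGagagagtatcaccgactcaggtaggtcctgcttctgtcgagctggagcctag
Slc3a1: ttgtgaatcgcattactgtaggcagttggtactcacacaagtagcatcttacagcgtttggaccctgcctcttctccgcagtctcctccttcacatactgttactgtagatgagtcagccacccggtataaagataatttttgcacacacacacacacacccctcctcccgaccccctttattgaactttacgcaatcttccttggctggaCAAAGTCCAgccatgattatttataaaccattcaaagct
Slc6a20a: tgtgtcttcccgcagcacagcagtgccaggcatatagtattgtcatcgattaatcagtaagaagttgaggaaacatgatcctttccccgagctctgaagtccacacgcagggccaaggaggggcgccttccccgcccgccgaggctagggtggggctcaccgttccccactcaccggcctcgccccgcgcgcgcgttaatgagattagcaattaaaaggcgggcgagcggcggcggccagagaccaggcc
Slc1a1: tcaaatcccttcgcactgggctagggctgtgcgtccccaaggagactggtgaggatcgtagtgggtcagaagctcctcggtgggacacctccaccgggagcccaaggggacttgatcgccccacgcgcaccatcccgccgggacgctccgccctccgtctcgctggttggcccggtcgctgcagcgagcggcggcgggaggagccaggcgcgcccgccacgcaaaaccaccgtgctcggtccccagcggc

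CAGCTG begins 52 bases before the start of Slc15a1 and 58 bases before that of Slc7a9, and CAAAGTCCA begins 39 bases before that of Slc3a1. CAGCTG was present in 10 of the 42 transporters (23.8%) and in 14.7% of all 27025 genes of the promoter table, over all listed starts of a gene. CAAAGTCCA was present in 1 of the 42 and in 0.451% of all genes. A Wnt-type TCF/LEF motif, CTTTGAT, was present in 5 of the 42 (11.9%), Slc1a2, Slc6a16, Slc7a1, Slc38a9 and Slc38a10, and in 3.72% of all genes. TGATGNAA, a motif of the Atf4 response to amino acid shortage, was present in 2 of the 42, Slc7a7 and the cystine carrier Slc7a11, and in 3.91% of all genes. TTTATG, a Cdx2-type motif, was present in 1 of the 42 and in 12.4% of all genes. None of the 5 motifs lay in the stretch of Slc6a20a or Slc1a1, and these matches are descriptions of letters, not of binding.

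Values are log2 ratios, altered organoids over control, so that 1 is a 2-fold higher level, and self-self values are Cy5 over Cy3. Between 50.1% and 61.1% of spots were well above background in Cy3 and between 53.8% and 67.4% in Cy5, with no saturated spot. On the self-self arrays the robust SD of all genes was 0.16, the 95th percentile of the absolute ratio 0.41, and the largest absolute ratio of a measured transporter 0.74, for Slc7a4. Between the replicates of experiment 1 the correlation was 0.40 over all genes and 0.81 over the 54 transporters. The Ascl2 probe read -0.31 and 0.12 in experiment 1, -0.72 and -0.92 on the arrays labelled Ascl2 over expressing and Tcf7l2null/Ascl2 over expressing, and -1.07 on the Ascl2null array. The brightest Tcf7l2 probe read -0.35 on the Tcf7l2null array and 0.17 on the Tcf7l2null/Ascl2 over expressing array. Its self-self values were 0.37 and -0.34, as far from 0. The other kept Tcf7l2 probes read -0.10 and -0.19 on the Tcf7l2null array, and -0.14 and -0.21 on the Tcf7l2null/Ascl2 over expressing array. The Ascl2 probe was thus not above 0.12 on any array labelled with its overexpression. The sources do not say which part of either gene the construct or deletion covers, so these probes may check nothing, conditions are named by their labels, and each direction rests on those labels. Probes for all 14 listed enterocyte markers were measured, and the lists for fibroblasts, leukocytes, endothelium and nerve had medians between -0.18 and 0.13 on the arrays of altered organoids.

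**Figure D1:**
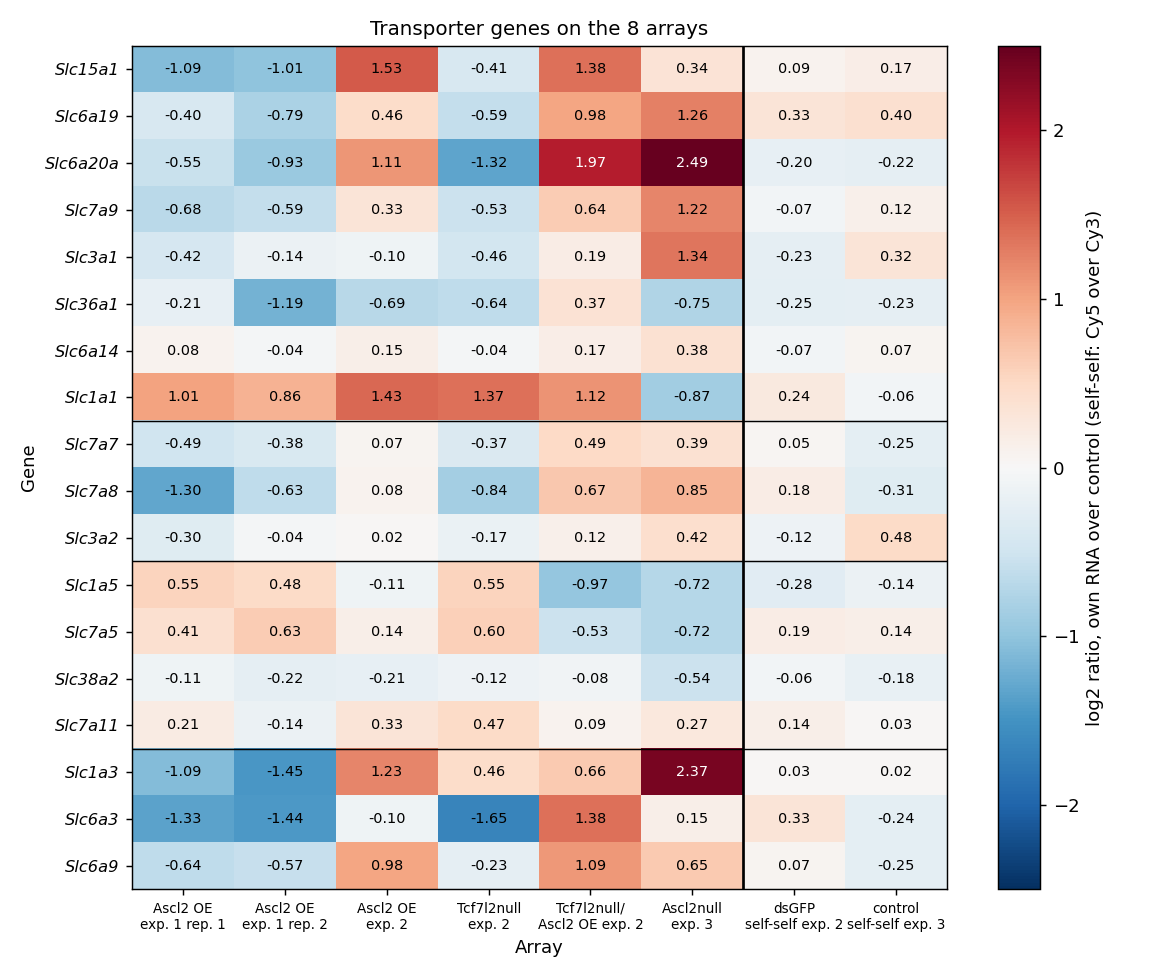
Log2 ratio of each named transporter gene (rows, grouped by horizontal lines into brush-border uptake, basolateral exchange, growth-linked and cystine uptake, and transmitter transport) on each of the 8 arrays (columns; self-self arrays right of the vertical line). Slc15a1 runs from -1.09 to 1.53 and Slc6a20a from -1.32 to 2.49, whereas Slc1a1 is above 0 on 5 of the 6 arrays of altered organoids and -0.87 on the Ascl2null array.

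Brush-border uptake genes were below their control in most cases in experiment 1 and on the Tcf7l2null array, and above it on the other 3 arrays of altered organoids. Of 10 listed genes 9 were measured. In experiment 1, 7 of the 9 were below 0 on each replicate, with medians of -0.40 and -0.59. On the Tcf7l2null array 8 of 9 were below 0, with a median of -0.46. On the Tcf7l2null/Ascl2 over expressing array 9 of 9 were above 0, with a median of 0.64. Among them Slc6a20b, Slc6a14, Slc3a1 and Slc36a1 read 0.15, 0.17, 0.19 and 0.37, within the self-self arrays' 95th percentile of 0.41. The controls of Slc6a14 and Slc15a1 were not well above background there. On the Ascl2 over expressing array of experiment 2 and the Ascl2null array 7 of 9 were above 0, with medians of 0.33 and 0.38. Those on the Ascl2null array include Slc15a1, for which neither channel was well above background. The medians of all genes on the arrays of altered organoids lay between -0.01 and 0.01. With each array centred on its median in place of loess, the list's median turned to 0.32 on replicate 1 of experiment 1, where the median of all genes was 0.39, and kept its sign on the other 5 arrays. There Slc6a19, Slc6a20a, Slc7a9 and Slc3a1 turned to 0.40, 0.26, 0.13 and 0.39, so that their direction on replicate 1 depends on the normalisation.

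The peptide carrier Slc15a1 (probe at chr14:121859041-121859100, mm9) gave opposite readings in the 2 Ascl2 overexpression experiments. It read -1.09 and -1.01 in experiment 1, -0.41 on the Tcf7l2null array, 1.38 on the Tcf7l2null/Ascl2 over expressing array, 1.53 on the Ascl2 over expressing array of experiment 2 and 0.34 on the Ascl2null array, with self-self values of 0.09 (experiment 2) and 0.17 (experiment 3). The control channel was not well above background on the Tcf7l2null/Ascl2 over expressing array. The bound there, 2.61-fold, is the reading itself and allows for no noise. On the Ascl2null array neither channel was well above background, so that the last ratio says little. Both experiment 1 arrays were thus below 0 and both Ascl2 arrays of experiment 2 above 0. Such a bound sets the altered organoids' signal, scaled to a common brightness between arrays, against the higher of the dim channel's own reading and the lowest signal still well above background.

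The proline carrier Slc6a20a (chr9:123545862-123545921) had the widest range of the brush-border genes. It read -0.55 and -0.93 in experiment 1, -1.32 on the Tcf7l2null array, 1.97 with Ascl2 overexpression added, 1.11 on the Ascl2 over expressing array of experiment 2 and 2.49 on the Ascl2null array, with self-self values of -0.20 and -0.22. It was thus below 0 on the first 3 of these arrays and above 0 on the others, a split read off these same values. Its neighbour Slc6a20b, a related carrier with its own probe, stayed between -0.32 and 0.29 on the arrays of altered organoids.

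The neutral amino acid carrier Slc6a19 (chr13:73818885-73818944) read -0.40 and -0.79 in experiment 1, -0.59 on the Tcf7l2null array, 0.98 with Ascl2 overexpression added, 0.46 on the Ascl2 over expressing array of experiment 2 and 1.26 on the Ascl2null array. Its self-self values were 0.33 and 0.40, so that the reading on the Ascl2 over expressing array of experiment 2 was close to that of control RNA against itself. The other readings lay farther from 0 or on the other side of it.

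Both chains of the cystine and basic amino acid exchanger read over 1 on the Ascl2null array, and neither passed limma in experiment 1 alone (adjusted p = 0.0561 for Slc7a9 and 0.486 for Slc3a1). Its light chain Slc7a9 (chr7:36248629-36248688) read -0.68 and -0.59 in experiment 1, -0.53 on the Tcf7l2null array, 0.64 with Ascl2 overexpression added, 0.33 on the Ascl2 over expressing array of experiment 2 and 1.22 on the Ascl2null array. The heavy chain Slc3a1 (chr17:85463142-85463201) read -0.42 and -0.14 in experiment 1, -0.46 on the Tcf7l2null array, 0.19 with Ascl2 overexpression added, -0.10 on the Ascl2 over expressing array of experiment 2 and 1.34 on the Ascl2null array, with self-self values of -0.23 and 0.32. Apart from the Ascl2null array the heavy chain thus stayed within 0.46 of 0, close to the technical spread.

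The glutamate carrier Slc1a1 (2 probes, chr19:28987016-28987075 and chr19:28988332-28988391) followed another pattern. It read 1.01 and 0.86 in experiment 1, 1.37 on the Tcf7l2null array, 1.12 with Ascl2 overexpression added, 1.43 on the Ascl2 over expressing array of experiment 2 and -0.87 on the Ascl2null array, with self-self values of 0.24 and -0.06. All 3 arrays labelled with Ascl2 overexpression alone and both Tcf7l2null arrays were high, and the Ascl2null array alone was low. On replicate 2 of experiment 1 the authors' deposited table gives -0.34 for this gene, where the scanner's own ratio gives 0.98. The proton-coupled carrier Slc36a1, which also acts at lysosomes, read -0.21 and -1.19 in experiment 1, -0.64 on the Tcf7l2null array, 0.37 with Ascl2 overexpression added, -0.69 on the Ascl2 over expressing array of experiment 2 and -0.75 on the Ascl2null array; its replicates in experiment 1 differed by more than any self-self value of a transporter. Slc6a14, a broad amino acid carrier, lay between -0.04 and 0.38 and was near background on most arrays.

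The basolateral genes were closer to their controls. Of 6 measured genes 4 were below 0 on each replicate of experiment 1 and on the Tcf7l2null array, with medians of -0.37, -0.21 and -0.27, and 5 of 6 were above 0 on each of the other arrays, with medians of 0.18 for Tcf7l2null/Ascl2 over expressing, 0.08 for Ascl2 over expressing in experiment 2 and 0.38 for Ascl2null. Under median centring the list's median turned to 0.07 on replicate 1 of experiment 1 and to 0.11 on the Tcf7l2null array, and with the scanner's own ratios 3 of 6 were below 0 on replicate 2. Slc7a8 (chr14:55341137-55341196), a light chain that exchanges neutral amino acids, read -1.30 and -0.63 in experiment 1, -0.84 on the Tcf7l2null array, 0.67 with Ascl2 overexpression added, 0.08 on the Ascl2 over expressing array of experiment 2 and 0.85 on the Ascl2null array. Slc7a7 (chr14:54989166-54989225), which exports basic amino acids, read -0.49, -0.38, -0.37, 0.49, 0.07 and 0.39 on the same arrays in that order. Their shared heavy chain Slc3a2, which also serves Slc7a5, stayed between -0.30 and 0.12 on all arrays but the Ascl2null array, where it read 0.42 beside a self-self value of 0.48.

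Carriers that feed growing cells had list medians near 0, and a few of them ran opposite to the brush-border genes. The 12 measured genes had medians between -0.16 and 0.21 on the arrays of altered organoids, and 0 of 12 were at or beyond 2-fold on any of these arrays. Slc38a4, Slc38a5, Slc7a2 and Slc7a3 were near background on most of them, which can draw the medians towards 0. On the Ascl2null array Slc38a2 read -0.54. Slc38a1 and Slc7a1, picked out after their values were seen, read -0.36 and -0.30 there, and Slc38a4 and Slc7a3 -0.03. Above 0 on that array were Slc3a2 (0.42, self-self 0.48), Slc38a3 (0.07), Slc7a2 (0.04) and Slc38a5 (0.02). The glutamine carrier Slc1a5 (chr7:17383359-17383418) read 0.55 and 0.48 in experiment 1, 0.55 on the Tcf7l2null array, -0.97 with Ascl2 overexpression added, -0.11 on the Ascl2 over expressing array of experiment 2 and -0.72 on the Ascl2null array, with self-self values of -0.28 and -0.14. The leucine and large neutral amino acid carrier Slc7a5 (chr8:124405142-124405201) read 0.41, 0.63, 0.60, -0.53, 0.14 and -0.72 on the same arrays in that order. Both were above 0 in experiment 1 and on the Tcf7l2null array, and below 0 with Ascl2 overexpression added to the loss of Tcf7l2 and on the Ascl2null array. For replicate 2 of experiment 1 the authors' deposited table gives -0.71 for Slc1a5 and -0.08 for Slc7a5, against 0.48 and 0.73 in the scanner's own ratios. Slc1a4, a serine and alanine carrier picked out after its values were seen, read 0.54 and 0.52 in experiment 1, 0.50 on the Tcf7l2null array, -0.66 with Ascl2 overexpression added, -0.52 on the Ascl2 over expressing array of experiment 2 and -0.87 on the Ascl2null array.

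Slc38a2, a sodium-coupled carrier that cells raise when amino acids run short, stayed between -0.54 and -0.08. The cystine carrier Slc7a11, a role of its own, which brings in cystine for glutathione and carries a pair of TGATGNAA matches, stayed between -0.14 and 0.47, and at least 1 channel was not well above background on every array of altered organoids.

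Among carriers best known for neurotransmitters, 3 reached 2-fold or more on at least 1 array. Slc1a3, a glutamate carrier of glial cells (chr15:8584236-8584295), read -1.09 and -1.45 in experiment 1, 0.46 on the Tcf7l2null array, 0.66 with Ascl2 overexpression added, 1.23 on the Ascl2 over expressing array of experiment 2 and 2.37 on the Ascl2null array, with self-self values of 0.03 and 0.02. Its control was well above background in experiment 1 but not on the arrays of experiment 2 or on the Ascl2null array. On the arrays of experiment 2 the bounds, 1.37-fold, 1.58-fold and 2.34-fold in that order, are the readings themselves. The lowest of these readings, 0.46, was close to the self-self arrays' 95th percentile of 0.41. On the Ascl2null array the bound was 4.37-fold. None of these bounds allows for noise. The 5 listed markers of nerve and glia had medians between -0.18 and 0.02 on the arrays of altered organoids. Among them S100b, a glial marker, read -0.67 and -0.42 in experiment 1, -0.39 on the Tcf7l2null array, 0.34 with Ascl2 overexpression added, 0.39 on the Ascl2 over expressing array of experiment 2 and 1.00 on the Ascl2null array, where the neuronal markers Elavl4 and Tubb3 read -1.32 and -0.85. The part of such cells in the Slc1a3 readings was not tested.

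Slc6a3, the dopamine carrier (chr13:73715973-73716032), was bright enough in both colours of every altered-organoid array. It read -1.33 and -1.44 in experiment 1, -1.65 on the Tcf7l2null array, 1.38 with Ascl2 overexpression added, -0.10 on the Ascl2 over expressing array of experiment 2 and 0.15 on the Ascl2null array, with self-self values of 0.33 and -0.24. Its probe lies 103 kb from that of Slc6a19 on chromosome 13 of mm9, with 3 protein-coding genes between them in RefSeq's GRCm38.p6 table, Clptm1l, Tert and Slc6a18. The glycine carrier Slc6a9 (chr4:117541835-117541894) read -0.64 and -0.57 in experiment 1, -0.23 on the Tcf7l2null array, 1.09 with Ascl2 overexpression added, 0.98 on the Ascl2 over expressing array of experiment 2 and 0.65 on the Ascl2null array.

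Counts at or beyond 2-fold summarise the 54 transporters, each set against the share of all genes in the same direction. On replicate 1 of experiment 1, 1 was higher (all genes 0.256%) and 4 lower (0.391%; 0.647% either way), which median centring turned to 5 higher and 0 lower. On replicate 2, 0 were higher (0.414%) and 4 lower (0.503%; 0.916% either way), and 0 higher and 10 lower under median centring. In the mean of both, 0 were higher (0.209%) and 3 lower (0.288%; 0.497% either way). On the Tcf7l2null array 1 was higher (0.355%) and 2 lower (0.491%; 0.846% either way). On the Tcf7l2null/Ascl2 over expressing array 5 were higher (1.09%) and 0 lower (1.85%; 2.94% either way). On the Ascl2 over expressing array of experiment 2, 4 were higher (1.02%) and 0 lower (0.773%; 1.8% either way), and on the Ascl2null array 5 were higher (2.1%) and 0 lower (1.35%; 3.45% either way). In all of these 6 arrays the transporters' share was above that of all genes, but the counts are small. On the self-self array of experiment 2, 0 transporters were higher (0.00523%) or lower (0.00523%; 0.0105% either way), and on that of experiment 3, 0 were higher (0.0731%) or lower (0.0261%; 0.0992% either way). The scanner's own ratios, made without the offset of 50 in the background correction, put 7 to 12 transporters at or beyond 2-fold on each array of altered organoids, with 4 higher and 5 lower on replicate 1 of experiment 1 and 5 higher and 4 lower on the Tcf7l2null array.

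Limma fitted a shared effect to the 3 arrays labelled with Ascl2 overexpression alone and tested it against 0 over 19166 genes. Because 2 of these arrays came from experiment 1, such an average can be set by that experiment alone. A value away from 0 therefore does not show that both experiments share it. Slc1a1 came closest, at 1.05 ± 0.12 (SE, n = 3 arrays; limma adjusted p = 0.0539), and was above 0 on 3 of 3 arrays. In limma 0 of the 54 transporters passed at an adjusted p under 0.05, against 0.0783% of all genes (15 genes; 0.0417% higher and 0.0365% lower). Without adjustment, 12 transporters were under 0.05 in limma (4 upward, 8 downward), as were 12.5% of all genes. Slc6a3 had -1.04 ± 0.25 (limma adjusted p = 0.176), Slc36a1 -0.73 ± 0.19 (limma adjusted p = 0.191) and Slc7a5 0.40 ± 0.12 (limma adjusted p = 0.258). On the experiment 2 array alone these genes read -0.10, -0.69 and 0.14 in that order. For Slc1a1 the limma adjusted p was under the threshold with offset 16 (0.0459) and with no filter on dim probes (0.0424). No transporter passed with median centring, the scanner's or the authors' ratios, the stricter filter or the brightest probe. Nor did any pass with local background as given, a dye term per slide, or either replicate of experiment 1 left out.

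With experiment 1 alone, 4 transporters passed, the peptide carrier Slc15a1, the glutamate carriers Slc1a1 and Slc1a3, and Slc6a3. Slc1a1 rose, to 0.93 ± 0.11 (SD, n = 2; limma adjusted p = 0.0327). Slc15a1 fell, to -1.05 ± 0.06 (SD, n = 2; limma adjusted p = 0.0251), as did Slc1a3, to -1.27 ± 0.26 (limma adjusted p = 0.0179), and Slc6a3, to -1.39 ± 0.08 (limma adjusted p = 0.0253). In that fit 200 of 19166 genes passed, 74 higher and 126 lower, and 22 transporters had an unadjusted p under 0.05 against 14.9% of all genes. Leaving out the experiment 2 array from the shared fit amounts to this same fit and is no further check. These tests rest on 2 arrays of opposite dye and on the technical spread of the self-self arrays.

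**Figure D2:**
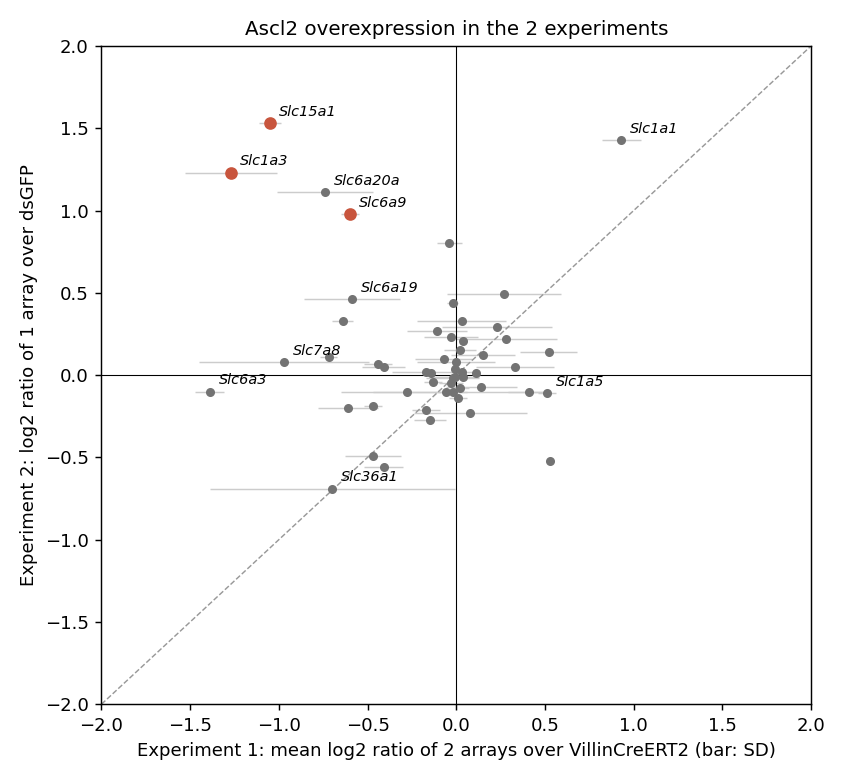
Each point is a measured transporter gene (54 points): the horizontal axis is its mean log2 ratio on the 2 arrays of experiment 1 (bar: SD), the vertical axis its log2 ratio on the Ascl2 over expressing array of experiment 2, and the dashed line marks equal values. Slc15a1, Slc1a3 and Slc6a9 (red) passed the limma test of the difference and lie at upper left, below 0 in experiment 1 and above 0 in experiment 2, whereas Slc1a1 is above 0 in both.

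The effect of Ascl2 overexpression differed between the experiments for 3 transporters, all of them higher in experiment 2. The difference, experiment 2 minus experiment 1, was 2.54 ± 0.21 (SE) for Slc15a1 (limma adjusted p = 0.00925), 2.39 ± 0.20 for Slc1a3 (limma adjusted p = 0.00929) and 1.64 ± 0.22 for Slc6a9 (limma adjusted p = 0.0381). Of all 19136 genes tested 0.716% passed (137), 96 of them higher (0.502%) and 41 lower (0.214%). Slc6a20a had 1.86 ± 0.28 (limma adjusted p = 0.0568), and Slc6a19, Slc7a8, Slc7a9 and Slc6a3 had 0.78, 1.25, 0.98 and 1.24 without passing. Since experiment 2 gave 1 such array, the spread in this test is technical, and experiment, control and slide cannot be told apart. With every probe of Slc1a3 taken, dim ones included, its difference was 0.90 (limma adjusted p = 0.14). Without replicate 1 of experiment 1 none of the 3 passed (limma adjusted p = 0.0881 for Slc15a1, 0.0564 for Slc1a3 and 0.284 for Slc6a9), and without replicate 2 Slc6a9 did not (0.0554).

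Markers of cell types differed between the same experiments. The 12 measured enteroendocrine markers had medians of -0.90 and -0.77 in experiment 1, with 12 of 12 below 0 on each replicate. On the Ascl2 over expressing array of experiment 2 their median was 0.23, with 7 above and 5 below 0. There the hormone genes Gcg, Gip, Cck and Sst read 3.98, 3.87, 3.16 and 3.05, and Sct and Chga -0.60 and -0.38. Paneth markers had medians of 0.33 and 0.18 in experiment 1 and -1.73 on the latter array, and crypt base stem cell markers 0.63 and 0.34 against -0.52. The part of these shifts in the transporters' difference was not tested. In RNA of whole organoids, fewer cells of a type and less RNA per cell cannot be told apart.

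Adding Ascl2 overexpression to the loss of Tcf7l2 went with the largest differences among transporters. In experiment 2 the arrays share the dsGFP control and the dye, which cancel in the difference between the Tcf7l2null/Ascl2 over expressing and the Tcf7l2null array. At or beyond 2-fold, 10 transporters were higher and 3 lower, against 2.49% and 3.89% of all genes in those directions (6.38% either way). The largest were Slc6a20a at 3.29, Slc6a3 at 3.03, Slc6a19 at 1.57 and Slc7a8 at 1.51. Slc15a1 was higher by 1.80, a value that is not exact because its control was not well above background on the Tcf7l2null/Ascl2 over expressing array. Slc6a9 (1.32), Slc7a9 (1.17) and Slc36a1 (1.01) were also higher, as were Slc7a15 (1.34) and the creatine carrier Slc6a8 (1.15), which were picked out after their values were seen. The 3 lower genes all feed growing cells, Slc1a5 at -1.52, Slc1a4 at -1.17 and Slc7a5 at -1.12. Each array stands alone, so these differences have no replicate check.

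**Figure D3:**
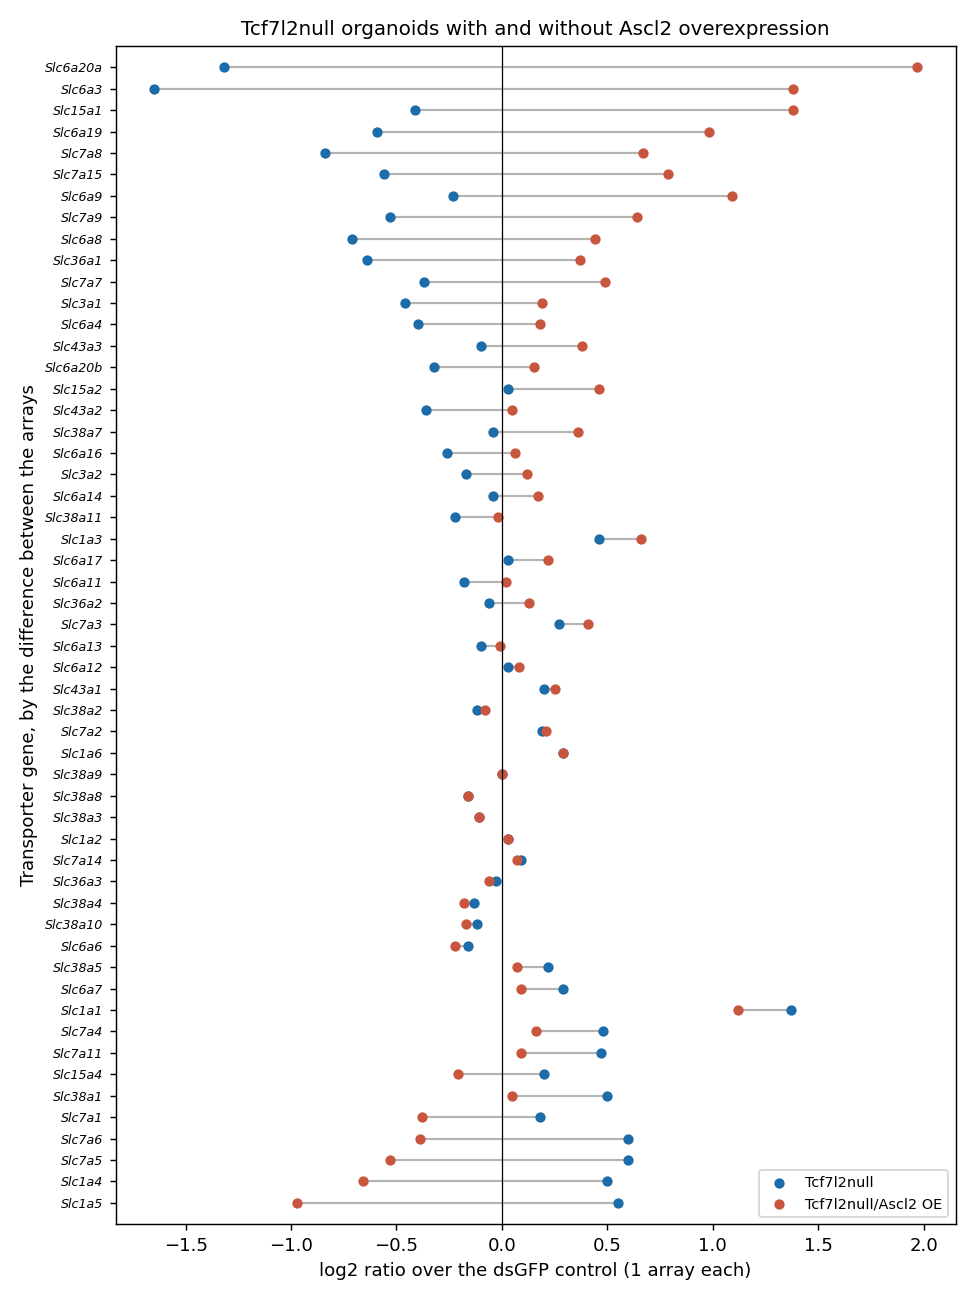
Log2 ratio over the dsGFP control of each of the 54 measured transporters (rows, ordered by the difference) on the Tcf7l2null array (blue) and on the Tcf7l2null/Ascl2 over expressing array (red), 1 array each. Slc6a20a goes from -1.32 to 1.97 at the top and Slc1a5 from 0.55 to -0.97 at the bottom, while Slc1a1 is high on both, at 1.37 and 1.12.

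Against the Ascl2 over expressing array of the same slide, 2 transporters were at least 2-fold higher on the Tcf7l2null/Ascl2 over expressing array, Slc6a3 at 1.49 and Slc36a1 at 1.06, and 0 lower, against 0.471% and 1.23% of all genes in those directions (1.7% either way). Slc6a9 differed by 0.11, less than the self-self arrays' 95th percentile of 0.41. For Slc15a1, whose control was not well above background on the Tcf7l2null/Ascl2 over expressing array, the difference was -0.15 but 0.11 with offset 16 and 1.46 with the scanner's ratios, so that its direction is not settled. Slc6a20a and Slc1a5 differed by 0.86 and -0.86.

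Across the 54 transporters, the signs of experiment 1 matched those of the Tcf7l2null array in 39 genes (72.2%, against 68.5% of all genes), and were opposite on the Tcf7l2null/Ascl2 over expressing array in 39 genes (72.2%, against 60.3% of all genes). With the Ascl2 over expressing array of experiment 2 they matched in 28 genes (51.9%, against 54.5%). Pearson's r across these genes, which are not independent replicates, was 0.77, -0.65 and -0.15 in that order. Over all genes it was 0.62, -0.36 and 0.12. These comparisons share no control, since experiment 1 had VillinCreERT2 and experiment 2 dsGFP organoids.

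Brush-border peptidases cut peptides into the substrates of these carriers. A list of them and of transporter partners was mostly below its control where the uptake genes were, with 1 array as an exception. It also holds Cndp2 and Pepd, peptidases that do not belong to the brush border. Of 15 listed genes 13 were measured. On replicates 1 and 2 of experiment 1, 12 of 13 were below 0, with medians of -0.59 and -0.64, and 13 of 13 on the Tcf7l2null array, with a median of -0.66. With Ascl2 overexpression added 11 of 13 were above 0 (median 0.25), and on the Ascl2 over expressing array of experiment 2, 10 of 13 were below 0 (median -0.25), unlike the uptake genes, whose median there was 0.33. Among those 10, Dpp4 and Mep1b rounded to 0. Under median centring the peptidases' median turned to 0.23 on replicate 1 of experiment 1, to 0.16 on the Ascl2 over expressing array of experiment 2 and to -0.01 on the Ascl2null array, from 0.16. On the Ascl2null array the gamma-glutamyl transferase Ggt1 (2.60) and the dipeptidase Dpep1 (0.69) were highest, and Xpnpep2 (-1.04) and Dpp4 (-0.65) lowest. In limma over the 3 Ascl2 arrays 0 of the 13 passed, and 8 were lower at an unadjusted p under 0.05, a level that 12.5% of all genes reached in either direction.

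The enterocyte marker list had the sign of the uptake genes on 5 of these 6 arrays. Its 14 measured markers had medians of -0.65 and -0.82 in experiment 1, -0.70 on the Tcf7l2null array, 0.27 with Ascl2 overexpression added, -0.36 on the Ascl2 over expressing array of experiment 2 and 1.06 on the Ascl2null array. The exception was the Ascl2 over expressing array of experiment 2, and Anpep stands in both the enterocyte and the peptidase list. On that array Slc15a1 and Slc6a20a were above 1 while lactase (Lct) read -1.63 and Fabp2 0.16. The cell cycle list, which the growth-linked carriers Slc1a5 and Slc7a5 are set beside, had medians of 0.33 and 0.10 in experiment 1, 0.56 on the Tcf7l2null array, -1.23 with Ascl2 overexpression added, -0.21 on the Ascl2 over expressing array of experiment 2 and 0.03 on the Ascl2null array. The part of cell composition in the transporters' values was not tested.

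**Figure D4:**
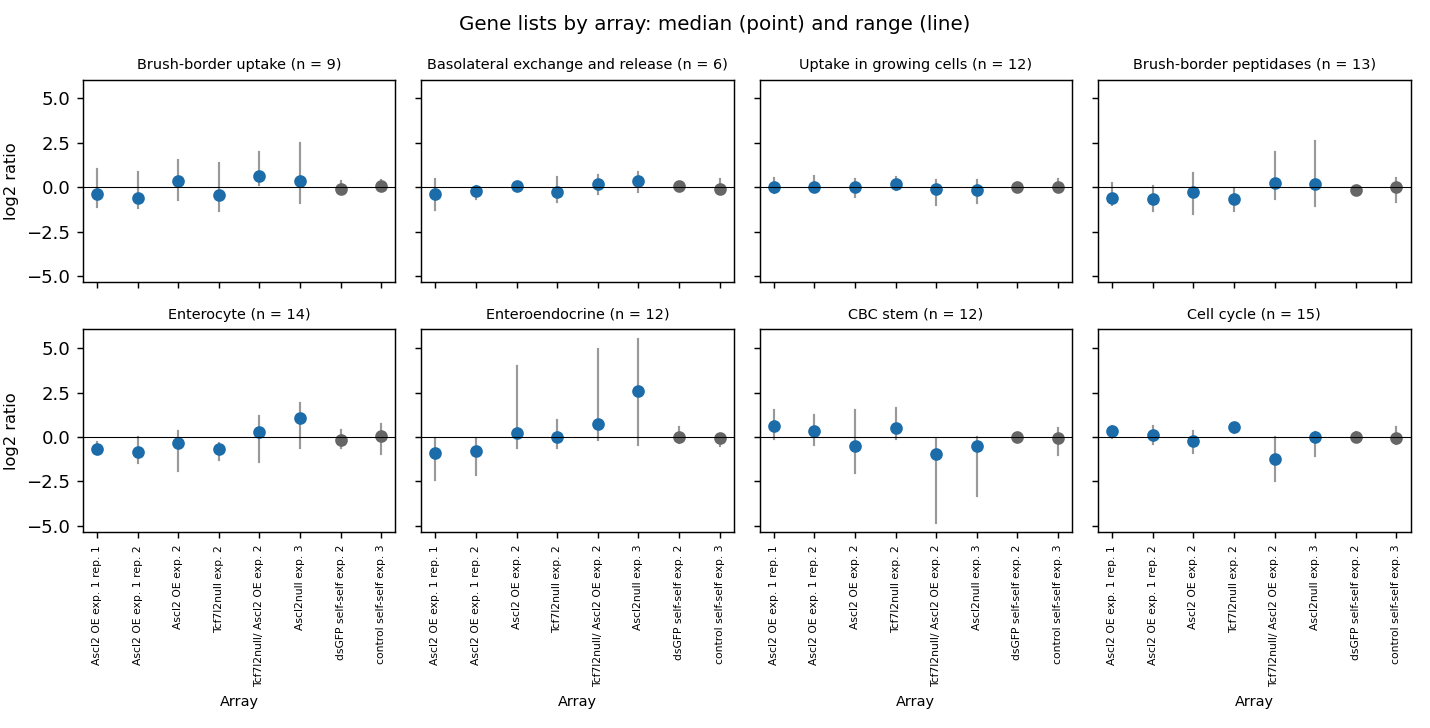
Median (point) and range (line) of the log2 ratio of each gene list on each of the 8 arrays (self-self arrays in grey; n, measured genes on replicate 1 of experiment 1). The medians of brush-border uptake and peptidase genes lie below 0 in experiment 1 and on the Tcf7l2null array, and the enteroendocrine list reaches 5.53 on the Ascl2null array.

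Other pathways of amino acid handling had list medians close to 0. The 10 transporters that Atf4, the factor of the amino acid response, is known to induce had medians between -0.16 and 0.23 on the arrays of altered organoids, with 1 at or beyond 2-fold, Slc6a9 with Ascl2 overexpression added to the loss of Tcf7l2. The wider Atf4 response list of 15 genes had medians between -0.09 and 0.18 there. Its lowest genes on the Tcf7l2null/Ascl2 over expressing array were Phgdh (-1.27), an enzyme of serine synthesis, and Ddit4 (-1.11), an inhibitor of mTORC1. The 8 measured genes of amino acid sensing by mTORC1 had medians between -0.16 and 0.04. In each of these lists 0 genes passed limma over the 3 Ascl2 arrays, against 0.0783% of all genes.

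Genes of glutamine, arginine and proline metabolism had medians between -0.26 and 0.14. Arg2, a mitochondrial arginase, was among the highest of the list on 2 arrays and read -0.81 and -0.88 in experiment 1, -0.91 on the Tcf7l2null array, 1.11 with Ascl2 overexpression added, 0.12 on the Ascl2 over expressing array of experiment 2 and 2.25 on the Ascl2null array. The liver-type glutaminase Gls2 was lowest with Ascl2 overexpression added, at -1.27. In limma over the 3 Ascl2 arrays 0 of the 14 measured genes passed.

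The remaining roles held few members. Carriers of osmolytes and creatine had 4 measured genes with medians of -0.23 and -0.32 in experiment 1 and between -0.13 and 0.18 on the other arrays. The 4 measured lysosomal carriers had medians between -0.22 and 0.18. Where several probes of a transporter were kept (22 genes), no gene had probes at 0.5 or more in opposite directions on any array of altered organoids. Probes could still differ in size. Those of the peptide carrier Slc15a2, picked out after its values were seen, read 1.55 and 0.04 on the Ascl2 over expressing array of experiment 2. Their mean was 0.80, with the control not well above background.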

How the data were processed

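Each of 8 Agilent mouse arrays compared 2 RNAs, labelled from 500 ng of total RNA in Cy3 and Cy5. Scanner intensity values, spot and local background, were deposited as made by Feature Extraction 10.5.1.1 (annotation mm9), per the file headers. The deposited log10 ratio of Cy5 over Cy3 is the scanner software's, per the file headers. The value table that the authors deposited is on the log2 scale, with no processing stated: beside the scanner's ratios, 8.7% and 8.49% of values differed by over 0.02 on the experiment 1 arrays and 0% on the others. The array medians of that table were 0.02, -0.01, 0.02, 0, 0.03, 0, 0 and 0.

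Median intensity was background-corrected with normexp (offset 50) and normalised within arrays by loess in limma 3.58.1 (R 4.3.3), which cannot show a shift of all genes. Replicate 2 of experiment 1 had 86 spots with extreme local background, up to 407956 in Cy3 against a median of 34. This disturbed normexp, so local background over 2 times the array's median was set to the median and the spot left out, a handling chosen after seeing the data. Outlier and control spots were left out, probes (27644 of 41174) were kept if well above background in a channel on at least 2 arrays, and kept probes were averaged per gene name. The sign of the dye-swapped array was turned.

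Limma was fitted to all 8 arrays with a dye term, with Benjamini-Hochberg adjustment over all genes, leaving 3 residual degrees of freedom for the shared effect and 2 for the difference between experiments. It was tested on simulated data. Members and lists were chosen with earlier results of these data known. Named genes were a fixed list of 14 carriers plus measured members at or beyond 2-fold on any array of altered organoids. The 2 highest and 2 lowest genes of a pathway list on an array were named too. Other genes given by name, such as Slc6a20b, Slc7a4 and the cell type markers, fall outside this rule. Only some of these are marked as picked out after their values were seen. Probe positions are mm9 as the scanner files give them; exons and UTRs were not analysed here. Promoters are RefSeq's for GRCm38.p6, matched by symbol. Alternatives were offset 16, median centring, the scanner's and the authors' ratios, other probe filters, the brightest probe, dye corrections and leaving out arrays. Some listed genes are not reported here.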

Additional observations from a re-analysis of the deposited data

Results flagged for a closer look

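The response to Ascl2 overexpression differed between experiments 1 and 2, in a limma test of the difference itself, for Slc15a1, Slc1a3 and Slc6a9. The difference, experiment 2 minus experiment 1, was 2.54 for Slc15a1 (limma adjusted p = 0.00925). It was 2.39 for Slc1a3 (limma adjusted p = 0.00929) and 1.64 for Slc6a9 (limma adjusted p = 0.0381). Experiment 2 gave 1 array, and none of the 3 passed under median centring (limma adjusted p = 0.271, 0.656 and 1) or without replicate 1 of experiment 1 (0.0881, 0.0564 and 0.284). With local background as given, Slc15a1 and Slc1a3 did not pass either (limma adjusted p = 0.108 and 0.107).

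Slc6a20a and Slc1a4 lay on opposite sides of 0 in the 2 experiments. Slc6a20a read -0.55 and -0.93 in experiment 1 and 1.11 in experiment 2, with a difference of 1.86 that did not pass (limma adjusted p = 0.0568). Slc1a4 read 0.54 and 0.52 in experiment 1 and -0.52 in experiment 2, with a difference of -1.13 that did not pass (limma adjusted p = 0.0991).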

How the results depend on the processing

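Median centring turned the transporters at or beyond 2-fold on replicate 1 of experiment 1 from 1 higher and 4 lower to 5 higher and 0 lower. Single readings of named genes changed sign in 23 of 144 cases under median centring, 8 of 139 with the authors' values, 7 of 72 after subtracting the slide's self-self array and 4 of 144 with the scanner's ratios or the brightest probe. The number of the 54 transporters at or beyond 2-fold became, with the scanner's own ratios, 9 and 7 on replicates 1 and 2 of experiment 1, 9 for Tcf7l2null, 12 for Tcf7l2null/Ascl2 over expressing, 10 for Ascl2 over expressing in experiment 2 and 12 for Ascl2null, and 20 and 11 in the differences from Tcf7l2null and from Ascl2 over expressing. The authors' values gave 7 on replicate 2, then 7, 11, 9 and 12 on the other arrays in that order, and 7 in the difference from Ascl2 over expressing. Median centring gave 10 on replicate 2 and 9 for Tcf7l2null/Ascl2 over expressing. No filter on dim probes gave 2 on replicate 2 and 1 in the difference from Ascl2 over expressing. The stricter filter gave 3 and 2 on replicates 1 and 2 and 2 for Ascl2 over expressing, and local background as given, an alternative added after seeing the data, gave 0 on replicate 2.

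Genes passing limma for the shared Ascl2 effect (15) became 38 with offset 16, 46 with no filter, 200 with experiment 1 alone, and 0 with median centring, the scanner's ratios, the authors' values, local background as given or a dye term per slide. Leaving out an array gave 0 to 200, where 200 is again the fit of experiment 1 alone. Genes passing for the difference between experiments (137) became 222 with offset 16, 0 with median centring and 90 with local background as given, and 28 without replicate 1 of experiment 1 to 145 without replicate 2. The difference of Slc15a1 was 2.33 and that of Slc1a3 2.13 under median centring (limma adjusted p = 0.271 and 0.656), and 2.13 and 1.85 with local background as given (limma adjusted p = 0.108 and 0.107). That of Slc6a9 was 1.49 under median centring, and 1.68 with the scanner's ratios and with the authors' values (limma adjusted p = 1, 0.191 and 0.0772). The cause was not tested. Median centring put the median of all genes at 0.39 and -0.16 on the replicates of experiment 1, and the share of higher among genes at or beyond 2-fold at 99.5% and 1.64%, against 39.5% and 45.1% with loess.

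A dye term per slide could not be fitted for the difference, because no residual degrees of freedom were left. No paired analysis was possible because only experiment 1 has replicates, and its arrays hold both RNAs of each comparison. The number of arrays limits the precision.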
